A study of Mus musculus with 2 samples.

Results

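The Mir26 family is a set of 3 mouse microRNA (miRNA) genes, Mir26a-1, Mir26a-2 and Mir26b, each placed in an intron of a small C-terminal domain phosphatase gene. Its members were taken by symbol, and all 3 were found among the 1973 miRNA genes of the count tables. The samples were neural tubes, the tissue that forms the central nervous system, from B6NCrl mouse embryos at 15.5 days. No genetic change and no treatment are named in the labels, and both sexes were mixed. The 2 samples form 1 group: library 1 came from 78 pooled embryos and library 2 from 62. No condition can therefore be compared with another, and the spread between libraries is the spread between pools.

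miRNAs are cut from a hairpin precursor that yields a 5p and a 3p strand, and bases 2 to 8 of the strand in use, the seed, pair with messenger RNAs and repress them. Members of the Mir26 family are broadly expressed, use mainly the 5p strand and are known to restrain proliferation, for example by acting on the mRNA of the chromatin silencer Ezh2. Their hosts Ctdspl, Ctdsp2 and Ctdsp1 encode phosphatases that act with the silencing factor REST to keep neuronal genes off outside neurons, and in zebrafish miR-26b is known to repress its host ctdsp2 as neurons form.

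The mature sequences are shown first, because they set which reads can be placed at a single gene. RefSeq (GRCm38.p6, the assembly of mm10) held all 3 members, and the capitals below mark the seed.
mmu-miR-26a-5p: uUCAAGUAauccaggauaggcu
mmu-miR-26b-5p: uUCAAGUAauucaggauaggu
mmu-miR-26a-1-3p: cCUAUUCUugguuacuugcacg
mmu-miR-26a-2-3p: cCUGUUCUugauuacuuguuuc
mmu-miR-26b-3p: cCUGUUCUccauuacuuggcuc

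The 5p strand of Mir26a-1 and that of Mir26a-2 are the same 22 bases. The 5p strand of Mir26b has 21 bases and differs from miR-26a-5p by C11U and C21U, with positions counted from 1 at the 5′ end, so that 19 of the 21 bases compared are the same and 0 of the differences lie in the seed. Among the 1738 mature sequences of the RefSeq table, the seed UCAAGUA was found in these 3 genes and in no other. The 3p strands are all distinct. Those of Mir26a-2 and Mir26b differ at 4 of 22 bases and share the seed CUGUUCU, which also occurs in mmu-miR-6932-3p and mmu-miR-7039-3p. That of Mir26a-1 differs from the Mir26a-2 strand at 6 bases, of which A4G lies in the seed, and its seed CUAUUCU was found in no other mature sequence of the table.

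The precursors show how far the likeness of the copies goes. Capitals here mark the mature strands.
Mir26a-1: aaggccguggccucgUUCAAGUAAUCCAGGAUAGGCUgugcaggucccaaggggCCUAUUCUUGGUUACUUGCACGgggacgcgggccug
Mir26a-2: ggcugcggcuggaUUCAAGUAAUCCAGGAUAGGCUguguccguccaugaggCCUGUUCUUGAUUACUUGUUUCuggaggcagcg
Mir26b: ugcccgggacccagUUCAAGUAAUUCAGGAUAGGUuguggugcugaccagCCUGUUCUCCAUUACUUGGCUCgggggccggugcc

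The Mir26a precursors share 1 unbroken run of 25 bases, which is the whole 5p strand and the 3 bases after it. Of the 69 stretches of 22 bases in the Mir26a-1 precursor, 4 occur in another of the 2202 annotated miRNA precursors (GENCODE M21), and in each case that other is Mir26a-2. For Mir26a-2 the number was 4 of 63, and for Mir26b 0 of 64. The longest run that Mir26b shares with a Mir26a precursor is 11 bases for Mir26a-1 and 10 for Mir26a-2. Over their whole length the Mir26a precursors were identical in 72.5% of aligned columns, and Mir26b was identical with Mir26a-1 in 68.8% and with Mir26a-2 in 67.4%. Reads that aligned to several places were listed apart in the deposited tables and counted in no gene. A read of the 5p strand fits both Mir26a genes, whereas a read of a 3p strand, or one that runs past the shared stretch, fits 1 of them.

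**Figure D1:**
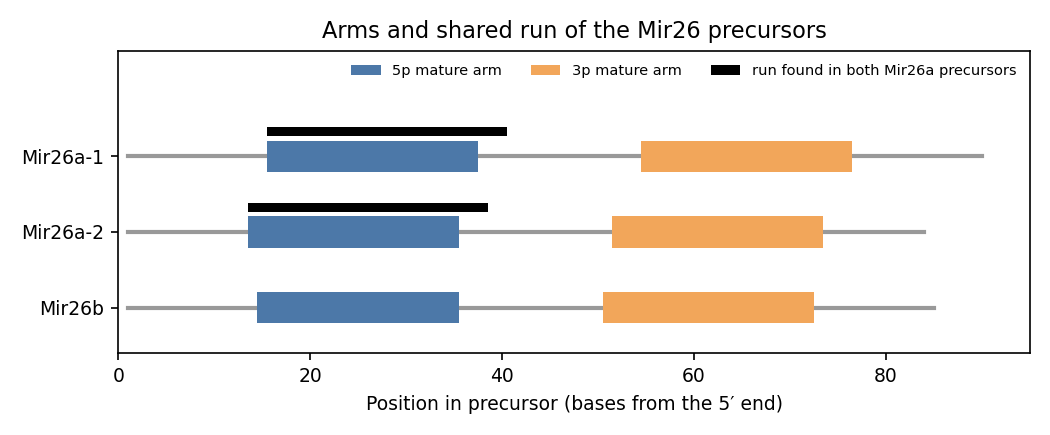
Position along the Mir26a-1, Mir26a-2 and Mir26b precursors in bases from the 5′ end (x axis), with the 5p strand in blue, the 3p strand in orange and the run found in both Mir26a precursors in black. The run covers the whole 5p strand of both Mir26a genes (25 bases), while Mir26b holds no such run.

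Each gene lies on the plus strand inside an intron of its host, by GENCODE M21 on the mm10 assembly. Mir26a-1 (ENSMUSG00000065513.1, chr9:119031796-119031885) lies in intron 5 of 7 of the Ctdspl transcript ENSMUST00000073109.11, an intron of 3283 bases. Mir26a-2 (ENSMUSG00000065430.1, chr10:126995530-126995613) lies in intron 5 of 7 of the single Ctdsp2 transcript that spans it, an intron of 1946 bases, and ends 241 bases before the next exon. Mir26b (ENSMUSG00000065468.1, chr1:74394310-74394394) lies in intron 4 of 6 of the Ctdsp1 transcript ENSMUST00000027367.13, an intron of 564 bases, with 234 bases before it and 245 after it. No annotated transcript of these hosts that spans the gene has an exon over it (0 of 3, 0 of 1 and 0 of 2). Levels of the host mRNAs were not analysed here.

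The tables held 4228685 sense counts in miRNA genes for library 1 and 6039889 for library 2, so a gene with 0 counts could still lie at up to 0.709 and 0.497 CPM (3 counts). CPM is a gene's sense counts divided by these totals and multiplied by 1000000. Intervals and limits cover counting error only. Neural marker genes were present in both libraries: the neuron list, led by Mir137, summed to 10107 and 10728 CPM with 5 of 8 members detected, which means at least 10 counts in each library. The 3 copies of Mir124a, a defining neuronal miRNA, had 2 to 17 uniquely placed counts each. Their precursors share 20 to 26 stretches of 22 bases with one another, so reads from there fit several genes and were not counted, and the level of Mir124a cannot be read from these counts. The progenitor list (Mir92b and the Mir9 genes) had 2 of 3 analysed members detected and summed to 2071 and 2353 CPM, and the oligodendrocyte list 3 of 3 and 2095 and 2328 CPM. Markers of other tissues differed between the pools: the epithelial list (6 of 6 detected) summed to 4525 CPM in library 1 and 146 in library 2, the mesenchyme and smooth muscle list (4 of 5) to 19290 and 4459 and the leukocyte list (3 of 3 analysed) to 433 and 237. The endothelial gene Mir126a reached 22011 and 19666 CPM, the erythroid list (3 of 3) 202 and 183, and the striated muscle list 283 and 360, with 1 of 4 analysed members detected and 2 at 0 in both libraries. The genes at 0 were the copies Mir133a-1 and Mir133a-2, whose shared stretches were not counted. All these sums hold uniquely placed reads only, so low or 0 counts of a gene with copies need not mean absence.

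By uniquely placed reads, Mir26b was among the most abundant miRNA genes of the neural tube. It had 46916 counts in library 1 and 70496 in library 2, or 11095 CPM (95% Wilson interval 10995 to 11195) and 11672 CPM (11586 to 11758). Its mean was 11383 ± 408 CPM (SD, n = 2), so it took 1.14% ± 0.0408 of all miRNA gene counts. The libraries gave nearly the same level, and the gene ranked 16th in library 1 and 14th in library 2. By mean level it stood at rank 14 of the 363 detected genes. Multimapping reads, 29.4% of all reads in library 1 and 29.7% in library 2, were counted in no gene. The share and rank therefore hold for uniquely placed reads only, and genes with copies may stand too low in this order.

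Mir26a-2 stood far below it. The gene in Ctdsp2 had 67 counts in library 1 and 74 in library 2, or 15.8 CPM (95% Wilson interval 12.5 to 20.1) and 12.3 CPM (9.76 to 15.4). Its mean of 14.0 ± 2.54 CPM (SD, n = 2) put it at rank 286 of the detected genes. Mir26a-1, the gene in Ctdspl, was lower again, with 20 counts in library 1 and 22 in library 2. These are 4.73 CPM (3.06 to 7.31) and 3.64 CPM (2.41 to 5.52), a mean of 4.19 ± 0.769 CPM (SD, n = 2) and rank 327. All 3 genes passed the minimum of 10 counts in each library, lay above the limit of 3 counts and had 0 counts on the opposite strand in both libraries.

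**Figure D2:**
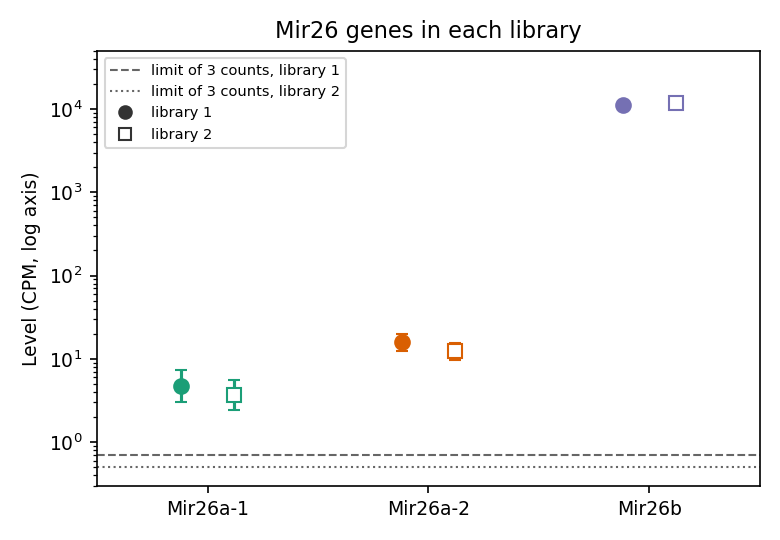
Level of each Mir26 gene in CPM on a log axis (y axis), in library 1 (filled circles) and library 2 (open squares), with 95% Wilson counting intervals. The dashed and dotted lines are the limits set by 3 counts. Mir26b sits near 11383 CPM, and the Mir26a genes at 14.0 and 4.19 CPM, with the same order in both libraries.

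The order Mir26b, Mir26a-2, Mir26a-1 was the same in both pools, and the counting intervals of the 3 genes did not overlap within a library. Mir26b counts were 700 times those of Mir26a-2 in library 1 (95% exact Clopper-Pearson interval 551 to 904) and 953 times in library 2 (759 to 1213). Against Mir26a-1 the ratio was 2346 (1519 to 3841) and 3204 (2116 to 5113). Between the Mir26a copies, Mir26a-2 had 3.35 times the counts of Mir26a-1 in library 1 (2.01 to 5.83) and 3.36 times in library 2 (2.07 to 5.69). The ratio between the copies was thus nearly the same in both pools, although it rests on few counts.

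Mir26b held 99.8% of the family's counts in library 1 and 99.9% in library 2, and the Mir26a genes together 0.185% (Wilson 0.150 to 0.228) and 0.136% (0.111 to 0.166). The family sum was 11115 CPM in library 1 and 11688 in library 2. The ratios are of counts and not per length. Per base of the annotated gene, which has 90, 84 and 85 bases for Mir26a-1, Mir26a-2 and Mir26b, the log2 ratio of Mir26b to Mir26a-1 counts was 11.50, against 11.42 without the division.

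The levels of the Mir26a genes hold only reads that fit a single gene. Reads aligned to several places numbered 2333818 in library 1 and 3480642 in library 2, which is 49.7 and 49.4 times the Mir26b count. How many of them came from miR-26a-5p cannot be told from the tables, which give them as 1 number per library. The counts are not split by strand of the hairpin either, so the shares of 5p and 3p reads in each gene were not tested. The summed level and the share of Mir26b describe uniquely placed reads, and the level of miR-26a-5p itself was not measured here.

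**Figure D3:**
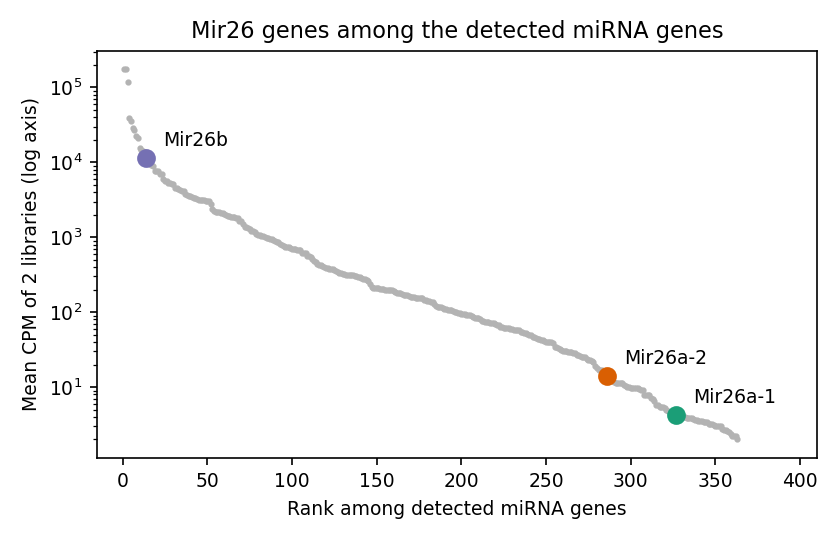
Mean CPM of the 2 libraries on a log axis (y axis) against the rank of each of the 363 detected miRNA genes (x axis, grey points), with the Mir26 genes in colour. Mir26b lies at rank 14, Mir26a-2 at 286 and Mir26a-1 at 327, all by uniquely placed reads.

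Neighbours in level were hard to tell apart for the Mir26a genes and easier for Mir26b. Above Mir26b, Mir149 reached 13773 ± 1898 CPM (SD, n = 2) and Mir130a 13985 ± 112, and both gaps exceeded the spread of either gene, with the same order in both libraries. Below it came Mir143 with 10950 ± 9899 CPM and Mir23b with 10057 ± 1613 CPM, whose gaps lay within the larger spread of each pair. Mir143, a smooth muscle miRNA, was above Mir26b in library 1 with 17950 CPM and below it in library 2 with 3951 CPM. Around Mir26a-2, the genes Gm23450, Mir582, Mir34b and Mir452 lay between 13.3 and 16.4 CPM and none differed from it beyond the spread between pools. The same held around Mir26a-1 for Mir669h, Mir3105, Mir6897 and Mir293, which lay between 4.09 and 4.41 CPM.

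Genes closest to a member in both libraries were found by the distance in log2(CPM + 1) over the 2 libraries, which is a description of 2 points and no more. For Mir26b they were Mir23b (distance 0.39), Mir149 (0.41) and Mir130a (0.43). For Mir26a-2 they were Mir452 (0.24), Mir582 (0.25) and Mir190b (0.30), and for Mir26a-1 Mir3105, Mir7224 and Mir3076, each at 0.13.

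The pools differed in Mir26b by a small amount that exceeded counting error. Mir26b was 1.08-fold higher in library 2 (95% exact interval 1.06 to 1.09, log2 ratio -0.11 as library 1 over library 2), and an exact binomial test against the TMM-scaled library sizes, two-sided with Benjamini-Hochberg adjustment over the 363 detected genes, gave an adjusted p of 7.84e-35. This test compares 2 libraries by counting error alone, and it called 49.9% of all detected genes, 25.6% as higher in library 1 and 24.2% as higher in library 2. A call is thus common here, and 1 of 3 members was called. edgeR's exact test also takes in how far the pools vary (a coefficient of variation of 34.3%) and called 2.20% of detected genes. By it, none of the 3 Mir26 genes was called (adjusted p = 1 for each), with an unadjusted p of 0.881 for Mir26b. That coefficient was estimated from the same 2 libraries, with the epithelial genes among them, so a gene it does not call may still differ. The larger epithelial and mesenchymal sums of library 1 moved opposite to Mir26b, and their part in its difference was not tested.

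The Mir26a genes were not called between the pools. Mir26a-2 had a library 1 to library 2 ratio of 1.26 (95% exact interval 0.894 to 1.78, adjusted p = 0.274 by the exact binomial test). Mir26a-1 had a ratio of 1.27 (0.657 to 2.44, adjusted p = 0.581 by the same exact test). At 20 to 74 counts these intervals also allow the ratio seen for Mir26b, 0.929, so a difference of that size was not detectable at this depth. The median log2 ratio over the 3 members was 0.34, which is the value of Mir26a-2 alone, and over all detected genes it was -0.0036. The summed counts of the family, nearly all from Mir26b, gave a log2 ratio of -0.11, so the median shows no shift of the family.

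**Figure D4:**
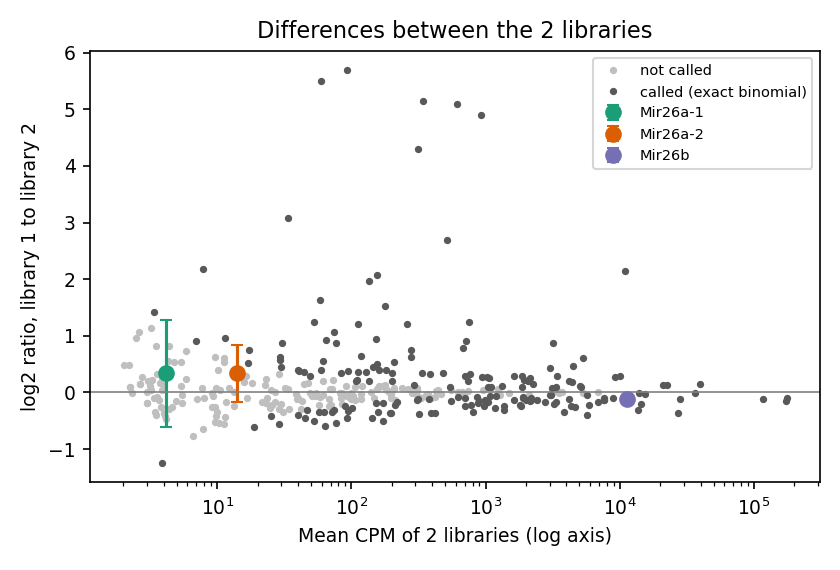
log2 ratio of library 1 to library 2 (y axis) against mean CPM on a log axis (x axis) for the 363 detected genes, dark where the exact binomial test called them and grey where it did not. Bars on the Mir26 genes are 95% exact counting intervals. Those of Mir26a-1 and Mir26a-2 span 0, and that of Mir26b, at -0.11, is narrower than its point.

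A family of the same build is found in the pantothenate kinase genes, where Mir103-1, Mir103-2 and Mir107 lie in introns of Pank3, Pank2 and Pank1. The 3p strand of the Mir103 copies is identical and differs from that of Mir107 by G22C alone, as the sequences below show, with the seed in capitals.
mmu-miR-103-3p: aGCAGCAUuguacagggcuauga
mmu-miR-107-3p: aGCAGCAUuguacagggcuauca

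Mir107 had 5833 counts in library 1 and 7546 in library 2 (1314 ± 91.9 CPM, SD, n = 2). Mir103-2 had 132 and 226 counts (34.3 ± 4.39 CPM) and Mir103-1 had 7 and 15, under the minimum in library 1. By uniquely placed reads, the gene with strands of its own was thus the highest in both families and the copies were lower. The cases are unlike in 1 respect. A 3p read that ends before base 22 fits Mir107 and both Mir103 genes, so Mir107 can lose reads as multimapping too. Mir26b shared 0 of 64 stretches of 22 bases with another precursor, and shared stretches were not counted for the Pank-hosted genes. Mir107 had 44.2 times the counts of Mir103-2 in library 1 (95% exact interval 37.2 to 52.9) and 33.4 times in library 2 (29.2 to 38.3), far under the ratios of 700 and 953 between Mir26b and Mir26a-2, whose intervals do not overlap these. The ratio of Mir103-2 to Mir103-1 was 18.9 in library 1 (8.90 to 47.8) and 15.1 in library 2 (8.94 to 27.4), above that between the Mir26a copies.

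Other families consist of copies alone. Mir218-2 and Mir218-1, in introns of the axon guidance genes Slit3 and Slit2, reached 147 ± 5.02 and 30.2 ± 2.53 CPM (SD, n = 2), a ratio of counts of 5.04 in library 1 (4.14 to 6.18) and 4.70 in library 2 (4.02 to 5.52). Mir128-1 and Mir128-2, in introns of R3hdm1 and Arpp21, reached 1275 ± 3.71 and 707 ± 68.9 CPM, a ratio of 1.93 (1.85 to 2.02) and 1.69 (1.63 to 1.75). Like the Mir26a genes, each of these has 1 strand that is identical in the other copy and 1 of its own. In both libraries, Mir26a-2 lay below the Mir218 and Mir128 genes, and of the genes in these 3 families Mir103-1 alone lay below Mir26a-1.

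**Figure D5:**
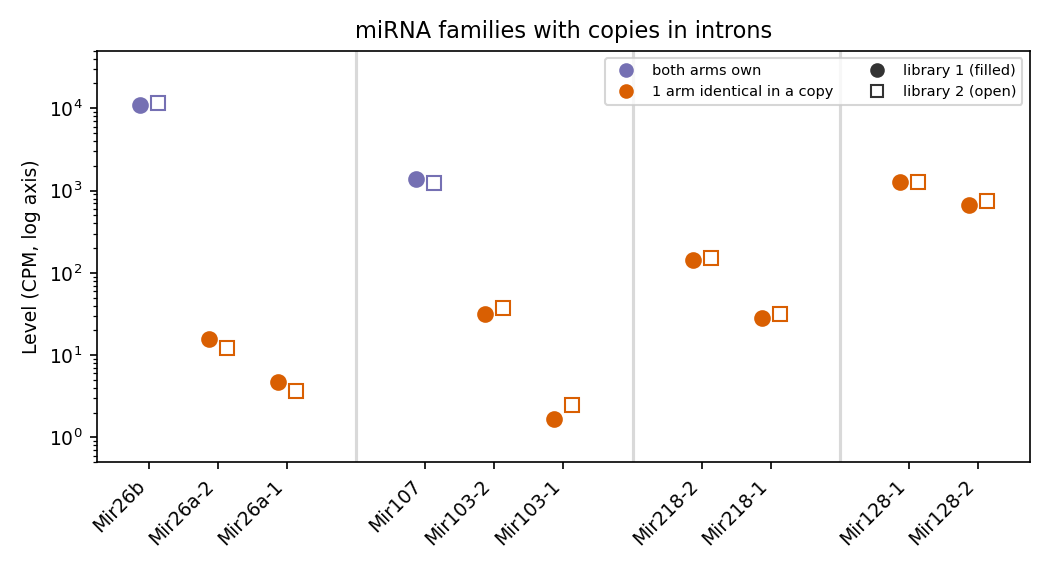
Level in CPM on a log axis (y axis) of the Mir26, Mir103 and Mir107, Mir218 and Mir128 genes, in library 1 (filled circles) and library 2 (open squares). Purple marks the genes with both strands of their own and orange those with 1 strand identical in a copy. Mir26b and Mir107 (1314 CPM) stand above the copies of their families.

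Across the 916 analysed genes with mature sequences in RefSeq, 53 had 1 strand identical in another gene and 1 of their own, as the Mir26a genes do. Of these 39 were detected, with a median of 39.6 CPM over all 53, and Mir26a-2 took place 32 and Mir26a-1 place 37. The 829 genes with no identical strand elsewhere had a median of 0.367 CPM with 284 detected, and Mir26b took place 14 among them. The Mir26a genes were thus below the median of genes built as they are, while 6 of the 53 exceeded 1000 CPM. The remaining 34 genes had every listed strand identical in another gene. Of these 7 were detected, and their median was 0 CPM by uniquely placed reads.

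Other miRNA genes tied to the same hosts and targets were taken from 2 lists. Of the 8 neuronal miRNA genes linked to REST, 7 were analysed and 3 detected. Mir132 reached 808 ± 120 CPM (SD, n = 2), Mir9-3 380 ± 12.8 and Mir212 42.7 ± 2.56, all below Mir26b and above both Mir26a genes. Mir132, known from neuronal activity, was the 1 member that the exact binomial test called, higher in library 2 with a log2 ratio of -0.34, where 24.2% of all detected genes were called in that direction. The median log2 ratio of the detected members was -0.16. Mir9-2 and the 3 Mir124a copies stayed under 10 counts in at least 1 library. All of these, and Mir9-3, share stretches of 22 bases with their copies (24 of 51 in Mir9-2 and 9 of 69 in Mir9-3), so their values leave out multimapping reads as those of the Mir26a genes do, and their levels are uncertain.

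The list of miRNA genes known, like Mir26a, to act on Ezh2 held Mir101a, Mir101b and the 9 let-7 genes whose symbols were found among the counts. Any let-7 gene without a matched symbol is left out. The list had 11 of 11 members detected and summed to 92220 ± 4629 CPM (SD, n = 2), against 11401 ± 405 for the Mir26 genes. Mirlet7g (39561 ± 3677 CPM) and Mirlet7i (36012 ± 310) stood above Mir26b, and the other let-7 genes, Mir101b (1023 ± 156) and Mir101a (308 ± 12.6) below it. Some let-7 genes, among them Mirlet7f-2, Mirlet7c-1, Mirlet7c-2 and Mirlet7a-1, have a strand identical in another gene. Their values leave out multimapping reads as those of the Mir26a genes do, so their levels, their place below Mir26b and the sum are uncertain. Between the pools 3 members were called higher in library 1, 3 higher in library 2 and 5 were not called, with a median log2 ratio of 0.02; as the same test called 49.9% of all detected genes, these counts are near the background. By edgeR's exact test 0 of the members of either list were called, and 0 had an unadjusted p under 0.05.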

How the data were processed

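The values are raw counts of reads for each miRNA gene, deposited as 1 table per library. Per the deposited README texts, these are gene quantifications on mm10 with GENCODE annotation M4; the sources used here do not name the aligner, counter or trimming. Counts of the sense column were used, and 4 leading entries that name no gene (45.7% and 47.7% of reads) were left out. Symbols and positions came from GENCODE M21 (1894 of 1973 identifiers matched), and sequences from RefSeq (GRCm38.p6). The members, the gene lists and the rule for named genes (all members, all listed genes, the 3 nearest genes by level and genes with a shared seed) were chosen with earlier results of these data known. Detection required 10 counts in each library. The libraries were compared gene by gene by an exact binomial test on TMM-scaled library sizes (edgeR 4.0.16, R 4.3.3), with adjusted p under 0.05 as the call. Alternatives were DESeq2 1.42.0 size factors, library sizes alone, other filters, both strands, thinning and leaving out either library. Python 3.11.15, scipy 1.17.1, Biopython 1.88 and matplotlib 3.10.9 were used. P-values measure only the spread or counting error between these 2 pools.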

Additional observations from a re-analysis of the deposited data

How the results depend on the processing

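With all reads of a library as its size, which lowers every level by construction, the mean levels were 2.20 CPM for Mir26a-1, 7.38 for Mir26a-2, 5962 for Mir26b and 5972 for their sum. Per base of the annotated gene, the log2 ratio of Mir26a-1 to Mir26a-2 was -1.85 in place of -1.75. By edgeR's exact test the log2 ratio of Mir26b stayed at -0.11 but was not called, and the number of genes that differed was 8, all higher in library 1, in place of 181. With both strands, TMM or DESeq2 scaling the levels moved by less than 1 SD. The single libraries give the levels of each pool, from 3.64 to 4.73 CPM for Mir26a-1, 12.3 to 15.8 for Mir26a-2 and 11095 to 11672 for Mir26b, and with 2 libraries this range says nothing of stability. With library sizes alone, DESeq2 size factors, both strands, no filter or thinning, the ratio of library 1 to library 2 kept its direction and its call in all 3 members. A minimum of 100 counts removed both Mir26a genes, so it gave no value for them. With the deeper library thinned, the log2 ratio of Mir26a-1 was 0.04 in place of 0.34, at 20 counts in library 1. No paired analysis was possible because both libraries belong to 1 group.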

Other observations

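The gap between Mir26b and its copies was set beside other families after the values were seen, with no test. For each of the 44 strands that the RefSeq table lists with the same sequence in at least 2 analysed genes, a relative was looked up. It had the same seed and arm and a sequence of its own, with the fewest differing positions and extra bases. Where several genes were equally near, the one with the highest mean CPM was taken, which raises the ratio by construction. Positions were compared base by base from the 5′ end without gaps, so a closer strand with an inserted or deleted base could be passed over. Other choices of relative were not tested. Such a relative was listed for 19 strands, and for 14 of them the gene with that strand and the summed copies had at least 10 counts in both libraries. The ratios are of whole-gene counts, which are not split by strand, and so are not ratios of the matched strands. The gene with the relative was above the copies in both libraries for 13 of the 14, with a median log2 ratio of 1.93. Copies lose reads of the shared strand, and ties went to the most abundant gene. Both push these values upward, so they give no result about the families themselves. Some genes stand in more than 1 of these comparisons. Mir26b against both Mir26a genes had the largest mean log2 ratio of the 14, 9.30, with 9.07 in library 1 and 9.52 in library 2. Next came Mir30e against the Mir30c genes with 7.76, Mir107 against the Mir103 genes with 5.18 and Mir29c against the Mir29b genes with 3.97. The Mir30e strand was a distant relative, with 6 differing positions and extra bases, against 3 for Mir26b, 1 for Mir107 and 4 for Mir29c. The 1 exception was Mir195a, below the Mir16 copies with a log2 ratio of -2.60. Copies are counted here from uniquely placed reads only, and how many reads of each family were left out as multimapping was not tested.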
